A study of Mus musculus with 15 samples.

Results

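Maturing neurons switch genes off as well as on, and 107 genes were found that lost their signal by P25 in fast-spiking interneurons of the mouse cortex. They were chosen by 1 rule on their measured values: over 5 on the log2 scale on all 3 arrays of postnatal day 7 (P7), and at or under 5 on all 6 arrays of P25 and P40. The limit of 5 was chosen as the edge between signal and background and was not itself tested. So "at background" below means at or under 5 and says nothing of absence. 121 of 18193 genes met the limits, and 14 of them were left out by symbol because they belong to channel, receptor, guidance and similar families or to a short list of names. Since P7, P25 and P40 selected the genes, their values at those ages are a description and carry no test. Only P10 and P15, whose arrays set none of the limits, were compared by a test. The spread used in that test came from the arrays of all ages. So P7, P25 and P40, which selected the genes, enter its errors and p-values, though not its differences.

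Whole-genome Affymetrix arrays of the mouse, 15 in all and each for 1 animal, measured the RNA, with 3 animals at each of P7, P10, P15, P25 and P40, the oldest group reaching day 45. All animals were G42 transgenic mice without further treatment, whose GFP, as is known of this line, is driven by regulatory sequence of the GABA-synthesis gene Gad1 and labels mainly basket cells. Green neurons of the primary somatosensory cortex were picked by hand after protease treatment, 23 to 85 per animal, and their RNA was amplified in 2 rounds. GFP alone identified the cells, and Pvalb, the calcium-binding protein of the mature class, was at background at P7, at 3.23, 3.19 and 4.45 on the 3 arrays, and at 13.98 to 14.42 on the 6 arrays of P25 and P40. Gad1 read 13.47 or more on every array, while Sst, a peptide of another interneuron class, exceeded 9 on all arrays but 1. Of 11 markers of other interneuron classes, 6 were over 5 on all P7 arrays, while Vip and Htr3a were at most 5 on all 15. Npy read at least 9.98, Reln 7.80, Cck 7.76 and Cnr1 7.53 on every array. The summed linear level of these markers was 8354 to 18710 at P7, 6472 to 13150 at P10 and 11700 to 39700 at P15. Because each sample pools cells, fewer expressing cells and less RNA per cell cannot be told apart in any value below.

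As background, young cortical interneurons are still extending axons, laying down surface and matrix proteins and building membrane lipid while they settle into their circuit. As they become fast-spiking they take up the channels, calcium buffers and energy metabolism of the adult cell. Growth-phase genes are often silenced at the same time through changes in transcription factors and in repressive chromatin, of which the Polycomb methyltransferase Ezh2, 1 of the 107 genes, is a well-known writer.

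Promoters are shown for 7 genes of which 2 were mostly at background by P10 (B3gnt5, Pak7), 3 were lower at P15 than at P10 (Lrrc3, Fat4, Sox12) and 2 were still over 5 on all P15 arrays (Elovl2, Sparc), so that early and late genes can be set side by side. Each run holds 300 bases around the annotated start, most of them upstream, read 5′ to 3′ on the gene's strand, from RefSeq on GRCm38.p6. Capitals mark a GC box (GGGCGG) or a CCAAT box (CCAAT) on either strand.
B3gnt5 (chr16:19759984-19760283, plus strand): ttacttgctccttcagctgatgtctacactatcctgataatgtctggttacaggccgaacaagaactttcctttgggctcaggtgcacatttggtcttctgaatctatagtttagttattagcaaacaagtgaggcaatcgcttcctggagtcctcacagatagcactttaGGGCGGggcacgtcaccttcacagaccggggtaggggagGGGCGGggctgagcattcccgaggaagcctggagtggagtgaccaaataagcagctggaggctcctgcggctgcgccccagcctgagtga
Pak7 (chr2:136387918-136388217, minus strand): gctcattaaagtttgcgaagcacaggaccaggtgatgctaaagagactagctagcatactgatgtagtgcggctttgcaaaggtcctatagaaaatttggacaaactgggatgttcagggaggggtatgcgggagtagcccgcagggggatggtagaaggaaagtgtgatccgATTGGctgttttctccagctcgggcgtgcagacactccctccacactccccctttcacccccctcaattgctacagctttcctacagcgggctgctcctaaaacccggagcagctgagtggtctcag
Lrrc3 (chr10:77902487-77902786, minus strand): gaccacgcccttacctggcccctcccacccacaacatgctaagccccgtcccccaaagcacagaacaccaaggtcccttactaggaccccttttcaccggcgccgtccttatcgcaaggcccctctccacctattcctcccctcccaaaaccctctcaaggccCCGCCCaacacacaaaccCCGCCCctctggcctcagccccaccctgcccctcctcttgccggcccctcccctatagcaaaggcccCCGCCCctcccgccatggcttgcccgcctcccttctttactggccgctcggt
Fat4 (chr3:38886690-38886989, plus strand): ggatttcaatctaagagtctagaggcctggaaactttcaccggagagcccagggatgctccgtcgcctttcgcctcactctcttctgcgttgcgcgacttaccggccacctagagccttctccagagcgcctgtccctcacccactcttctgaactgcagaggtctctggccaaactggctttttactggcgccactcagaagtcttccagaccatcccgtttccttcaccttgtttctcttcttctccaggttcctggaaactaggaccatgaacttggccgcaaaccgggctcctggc
Sox12 (chr2:152397997-152398296, minus strand): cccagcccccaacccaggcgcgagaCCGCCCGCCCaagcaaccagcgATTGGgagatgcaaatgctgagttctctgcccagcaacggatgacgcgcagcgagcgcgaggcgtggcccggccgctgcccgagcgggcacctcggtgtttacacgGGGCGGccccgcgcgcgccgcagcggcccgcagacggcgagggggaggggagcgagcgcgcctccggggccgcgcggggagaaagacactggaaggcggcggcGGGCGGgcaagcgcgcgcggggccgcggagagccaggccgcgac
Elovl2 (chr13:41220354-41220653, minus strand): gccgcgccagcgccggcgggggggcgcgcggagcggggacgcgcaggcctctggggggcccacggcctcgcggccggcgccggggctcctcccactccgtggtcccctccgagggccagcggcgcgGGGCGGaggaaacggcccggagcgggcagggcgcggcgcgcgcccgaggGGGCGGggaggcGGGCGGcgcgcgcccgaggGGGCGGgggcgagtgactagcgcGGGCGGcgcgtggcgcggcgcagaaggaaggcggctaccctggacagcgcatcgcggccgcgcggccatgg
Sparc (chr11:55420031-55420330, minus strand): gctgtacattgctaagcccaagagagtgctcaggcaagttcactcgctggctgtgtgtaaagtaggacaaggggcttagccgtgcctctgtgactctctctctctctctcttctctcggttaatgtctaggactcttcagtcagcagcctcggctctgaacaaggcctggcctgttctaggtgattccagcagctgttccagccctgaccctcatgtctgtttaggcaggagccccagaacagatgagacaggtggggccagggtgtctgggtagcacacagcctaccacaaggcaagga

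The windows ranged from the CpG-rich promoter of Elovl2, with 84.7% G or C and 56 CpG dinucleotides, to that of Sparc, with 55.3% and 4. B3gnt5 and Pak7 each held 9 CpG, Fat4 held 13, Lrrc3 14 and Sox12 47, so that the 2 late genes had the most and the fewest of the 7. A window was found for 83 of the 107 genes, and their median GC content of 62.0% equalled that of the 6774 tested genes with a window that were over 5 on all P7 arrays. Over all 27025 promoters it was 52.7%. The GC box was found in 51 of the 83 windows (61.4%), in 68.0% of windows of genes expressed at P7 and in 35.9% of all promoters. The CCAAT box was found in 36 (43.4%), against 38.5% and 37.9%. The palindromic E-box CACGTG, which MYC and related factors can bind, was found in 11 windows (13.2%), against 10.8% and 7.24%, and a general E-box (CANNTG, which contains CACGTG) in 53 (63.9%), against 60.9% and 72.1%. The TATA box (TATAAA) was found in 3 windows, the SOX core (AACAAAG) in 2 and the AP-1 site (TGACTCA) in 4, or 3.61, 2.41 and 4.82%, against 6.2, 3.5 and 2.78% of windows of genes expressed at P7 and 14.2, 5.79 and 5.17% of all promoters. The median number of CpG dinucleotides was 18, against 23 and 7. These letter matches on both strands are a description of the windows.

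The 107 genes reached background at different ages. All 107 were over 5 on each P7 array and none on any P25 or P40 array, as the rule requires. On the P10 arrays 81, 67 and 63 were over 5, and on the P15 arrays 29, 31 and 36. The median of the genes' mean levels was 6.78 at P7, then 5.51 (P10), 4.53 (P15), 3.88 (P25) and 3.62 (P40).

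**Figure D1:**
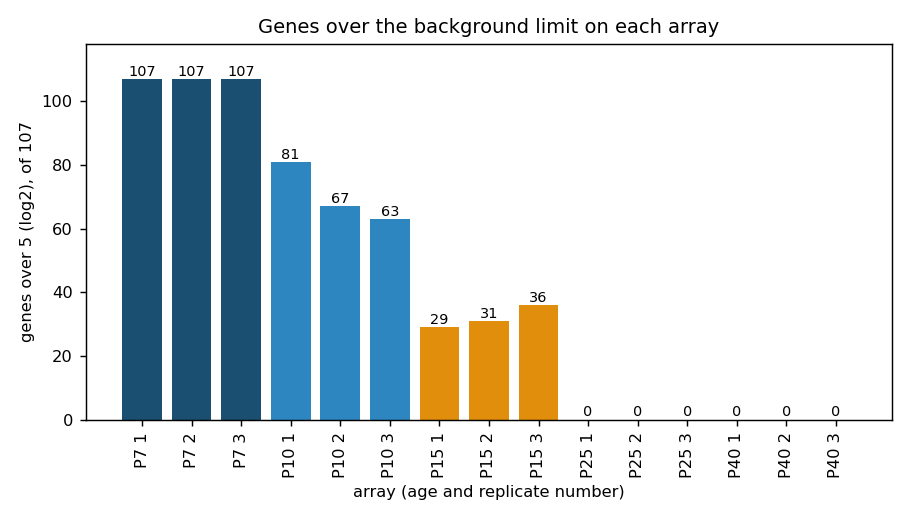
Number of the 107 genes over 5 (log2) on each of the 15 arrays, with bars coloured by age. The P10 arrays hold 63 to 81 genes and the P15 arrays 29 to 36, without overlap; 107 at P7 and 0 at P25 and P40 are set by the rule.

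15 genes were at background on all 3 P10 arrays already, against 34 of the 8266 tested genes over 5 at P7 (0.411%). 53 were at background on all 3 P15 arrays, against 95 of those 8266 genes (1.15%), so these 53 made up 55.8% of the 95. The rule itself, through P25 and P40, favours genes that are low at P15, so the shares are given as a description. 12 genes were at background on every P10 and P15 array, and 3 of the 15 early genes, Mdc1, Tcim and Tpd52l1, were over 5 again on at least 1 P15 array. At the other end 11 genes were over 5 on all P15 arrays, as were 96.0% of the genes expressed at P7. Without P7 replicate 1 the rule found 154 genes, of which 45 were at background at P10 and 91 at P15. Without P7 replicate 2 or 3 the early count was 25 or 23. The count of 11 at P15 became 21 without P15 replicate 1, 18 without P15 replicate 2 and 17 without either of P25 replicates 1 and 2. Without P10 replicate 1 the early count was 31 in place of 15, as 16 genes were over 5 on that P10 array alone, B3gnt5, Lrig3, Nrp1 and Pak7 among them. Of the 8266 genes, 30 (0.363%) were over 5 on that P10 array alone.

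**Figure D2:**
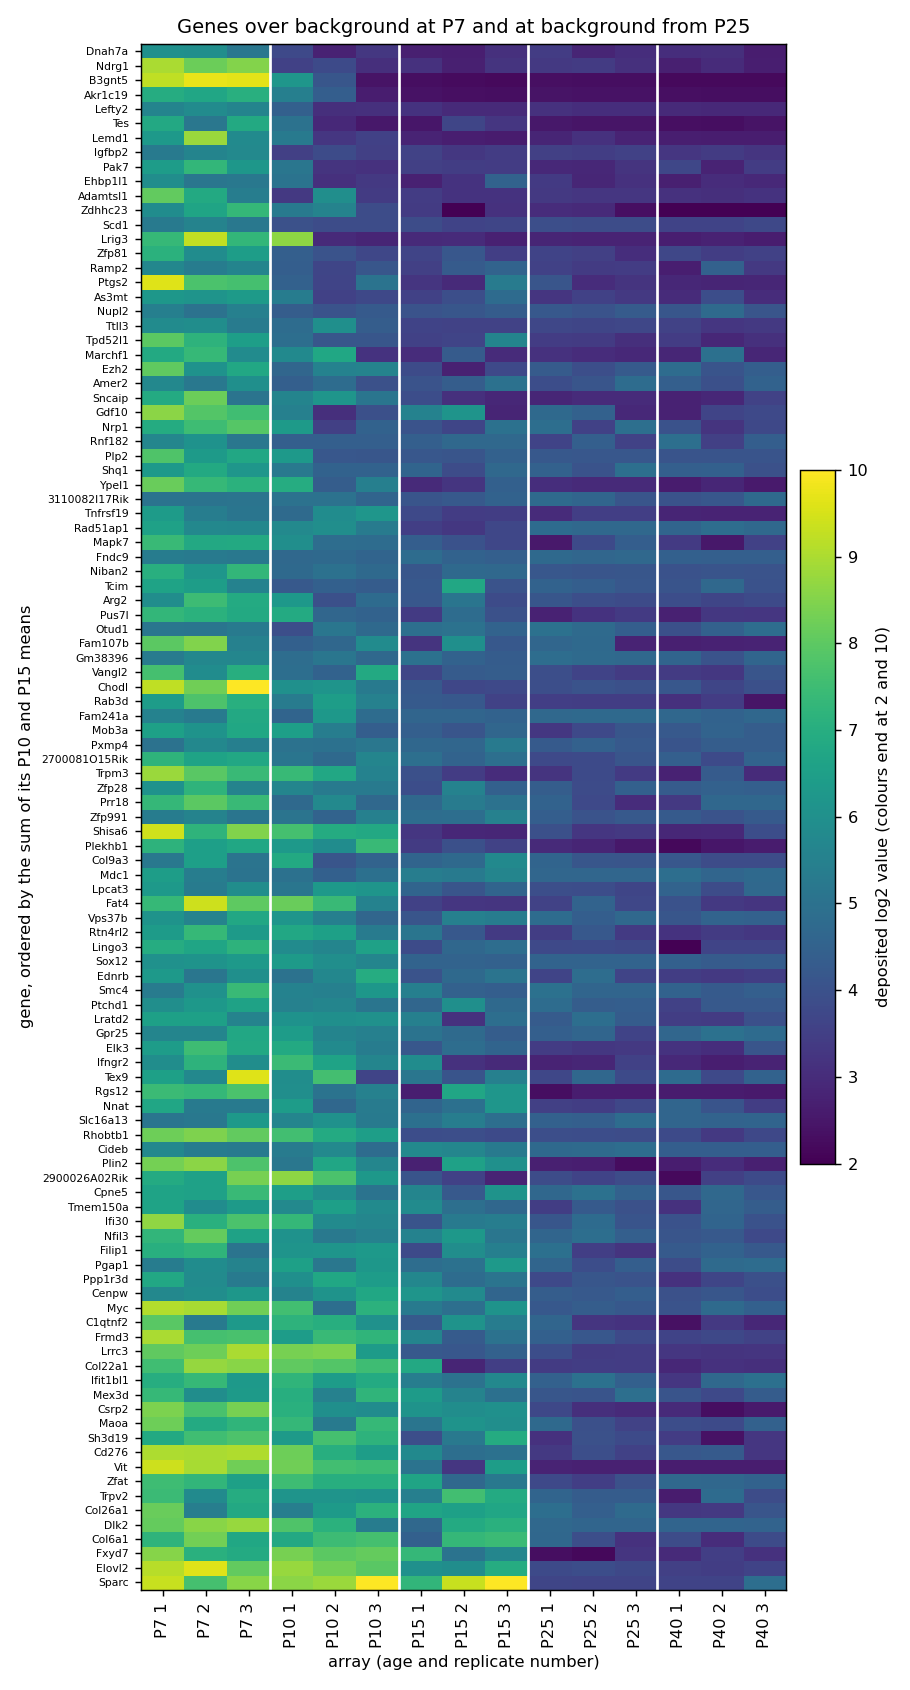
Deposited log2 value of each of the 107 genes (rows, ordered by the sum of the P10 and P15 means) on the 15 arrays (columns). The upper rows, such as Ndrg1 and Dnah7a, are dark from P10, and the lowest rows, such as Sparc and Elovl2, stay bright through P15 and are dark at P25.

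How far the label "off" holds differs between genes. The gap between a gene's lowest P7 array and its highest P25 or P40 array ran from 0.13 (Otud1) to 6.91 (B3gnt5) on the log2 scale, with a median of 1.81. It exceeded 1 for 76 genes and 3 for 25, and it was under 0.5 for 14 genes that lie close to the limit on both sides. 38 genes were under 4 on all 6 late arrays. Just inside the P7 limit lay Nupl2 (5.0 on its lowest P7 array), Pxmp4 (5.01), 3110082I17Rik (5.04), Mdc1 (5.05) and Col9a3 (5.07). Just outside it lay Ryr3 (4.99), Lrrc74b (4.96), Cbln2 (4.94), Neurl1b (4.94) and Zfp772 (4.93). Just inside the late limit lay Gpr25 (4.99 on its highest late array), Smc4 (4.98), Otud1 (4.98), Cpne5 (4.98) and Ifit1bl1 (4.97). Just outside it lay Rab31 (5.01), Slc16a9 (5.02), Dpysl5 (5.02), Rbfox2 (5.03) and Fbxo27 (5.05). For these 20 genes, membership turns on a small fraction of a log2 unit.

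Ndrg1, a cytoplasmic protein induced by hypoxia, cellular stress and differentiation, read 9.0, 8.19 and 8.50 on P7 replicates 1 to 3, the order used throughout, and 3.54, 3.79 and 3.08 at P10. At P15 it read 3.13, 2.70 and 3.2, and it stayed between 2.67 and 3.38 at P25 and P40. The P7 arrays stood at least 4 log2 units above all others, with no overlap. These values come from a probe set whose suffix marks possible cross-hybridization (x_at), and of the gene's 4 further probe sets 2 exceeded 5 on 1 P7 array each and 2 on none.

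B3gnt5, the transferase that starts the lacto-series of glycosphingolipids, read high at P7, at 9.23, 9.74 and 9.68. At P10 it read 6.21, 4.14 and 2.41, and it was between 2.21 and 2.30 at P15. The P10 animals differed widely, with replicate 3 close to the P15 level and replicates 1 and 2 between it and the P7 arrays, and the P15 difference from P10 did not pass the test (log2 difference -2.01, SE 0.64, adjusted p = 0.054 by limma over 9663 genes). Akr1c19, an aldo-keto reductase, had the same order at P10, at 5.45, 4.39 and 2.64 after 6.73 to 7.04 at P7. Ptgs2, the inducible cyclooxygenase that makes prostaglandin precursors, read 9.60, 7.75 and 7.65 at P7 and 4.48, 3.63 and 5.05 at P10. At P15 Ptgs2 was at 3.23 and 2.97 on replicates 1 and 2 and at 5.33 on replicate 3, so both ages straddled the limit.

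Lower at P7 but at background from P10 on all later arrays were Igfbp2, a secreted binding protein that restrains insulin-like growth factors, and Scd1, a desaturase that makes monounsaturated fatty acids. Igfbp2 read 5.29, 5.61 and 5.76 at P7 and 3.53, 3.83 and 3.52 at P10. Scd1 read 5.27, 5.58 and 5.21, and then 3.99, 3.87 and 3.85. In both genes every P10 array lay under every P7 array by more than 1 log2 unit. Lefty2, a secreted antagonist of Nodal signalling, went the same way, with 5.60 to 5.85 at P7 and 3.08 to 4.44 at P10. The other genes at background at P10 and P15 were Amer2, Dnah7a, Fndc9, Niban2, Nupl2, Ramp2, Rnf182 and Zfp81, whose P7 means ran from 5.28 to 6.85.

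**Figure D3:**
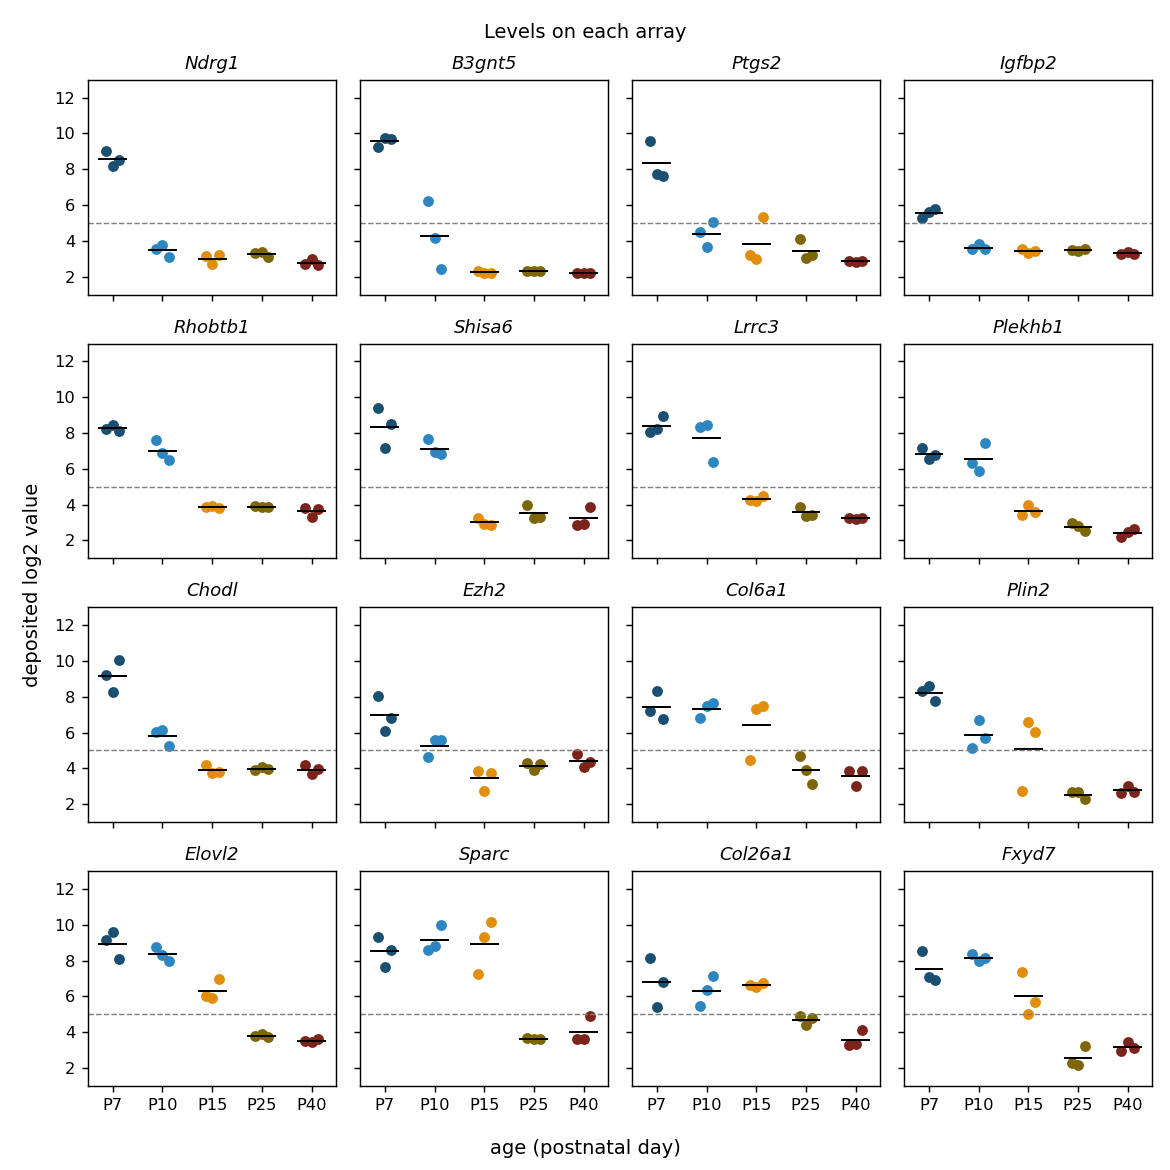
Deposited log2 value of 16 of the genes on each array (points) at each age, with the mean of 3 arrays (bars) and the limit of 5 (dashed). In the upper row Ndrg1 and Igfbp2 are at background from P10, while B3gnt5 reaches 6.21 at P10 and Ptgs2 5.05 at P10 and 5.33 at P15. The second row and Chodl and Ezh2 are at background from P15, and the bottom row stays over 5 at P15. Col6a1 and Plin2 split between the P15 animals.

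The comparison of P15 with P10 asks which of these genes were already lower before the age at which the rule finds them at background. 31 of the 107 genes (29.0%) were lower at P15 by limma with adjusted p under 0.05, against 270 of all 9663 tested genes (2.79%) and 254 of the 8266 expressed at P7 (3.07%). None of the 107 was higher, against 828 of all tested genes (8.57%), and at an unadjusted p under 0.05 the counts were 44 lower and 0 higher. A weighting of the arrays made 1 gene, Mdc1, higher. The median difference was -0.90 for the 107 genes, 0.20 for all tested genes and 0.17 for those expressed at P7. The 3 P15 arrays lay under all 3 P10 arrays for 41 genes, against 9.24% of all tested genes. Because the genes were chosen to be lower from P25 than at P7, a lower level at P15 is the direction that choice favours, and the size of the steps, gene by gene, is what the comparison adds.

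**Figure D4:**
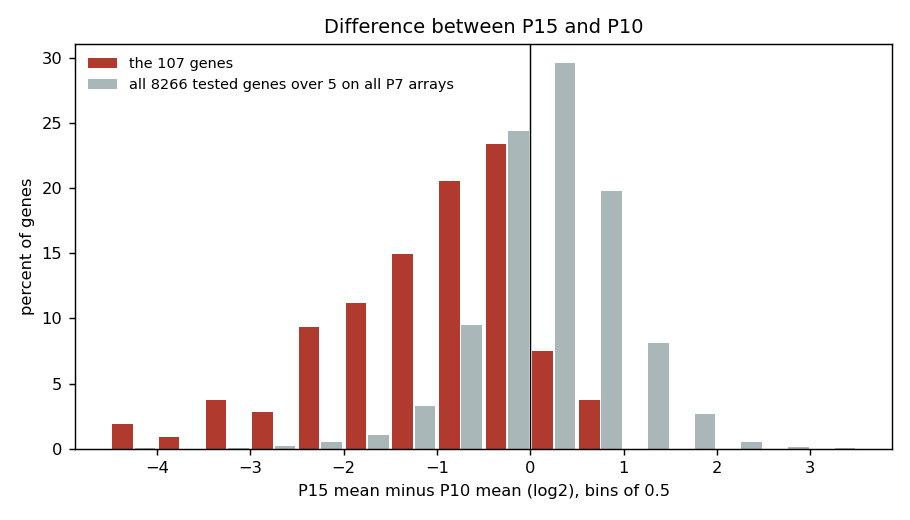
Share of genes in each bin of 0.5 of the log2 difference P15 minus P10, for the 107 genes (red) and for all 8266 tested genes over 5 on the P7 arrays (grey). The 107 genes reach down to -4.12 and none exceeds 0.67, with a median of -0.90 against 0.17.

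The count rests on few arrays. It was 18 without P10 replicate 1, 16 without P10 replicate 2, 10 without P15 replicate 2, 15 without P15 replicate 3, and 5 with P15 replicate 1 as the sole P15 array, while the fit on the P10 and P15 arrays alone gave 6. The background moved too, to 0.538% of all tested genes without P15 replicate 2 and to 0.228% in the fit on the P10 and P15 arrays. P15 replicates 2 and 3 stood apart from the other 13 arrays in their spiked hybridization controls, with medians of 2.48 and 2.44 against at least 8.77. The beta-actin control probes differed between the 3′ and the 5′ end of the transcript by 5.73 ± 0.37 (SD, n = 3) at P10 and by 4.50 ± 1.29 at P15, a gap that grows as amplified RNA gets shorter, and this measure as a covariate left 12 calls. Fewer cells were picked at P15 (23 to 45) than at P10 (47 to 72), and the number of cells as a covariate left 3 calls, Rhobtb1, Shisa6 and Plekhb1. The median difference of the 107 genes was -0.998 with the actin covariate and -0.887 with the number of cells, near the -0.897 without them. Of the 31 genes, 10 kept their call without any 1 of the 6 P10 and P15 arrays, among them Rhobtb1, Shisa6, Lrrc3, Plekhb1, 2900026A02Rik, Fat4, Trpm3, Sox12 and Vit. The other 21 lost it without at least 1 of those arrays. The part of these quantities in the differences was not tested.

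Some markers of other cell types also differed in level between the P10 and P15 arrays. The summed linear level of 10 astrocyte markers was 117 to 257 at P7, 414 to 1066 at P10 and 98.4 to 169 at P15, and it was 312 to 1384 at P25. Of the 10, Gfap and Gjb6 never exceeded 5, 1 (Slc1a2) was over 5 on all P10 arrays and none on all P15 arrays. Gja1, the astrocyte connexin, read 3.25, 8.55 and 9.02 on the P10 arrays and at most 3.32 at P15. On P7 replicate 3 Slc1a3 read 6.65 and Slc1a2 5.79. The part of astrocyte RNA in the levels of the 107 genes, at P7 or later, was not tested. Of the excitatory neuron markers 6 of 10 were at background on all 15 arrays. Their summed level was 1550 to 2837 at P7, 2059 to 2581 at P10 and 2326 to 4010 at P15. Nrgn, 1 of the 10, read 8.93, 8.78 and 8.47 at P10 and 8.51, 4.96 and 6.42 at P15. It was at most 4.72 at P25 and P40. Of the microglial markers 7 of 9 were at background on all 15 arrays. So were 10 of 11 endothelial and mural, 4 of 4 blood and 8 of 9 cycling progenitor markers. The same held for 4 of 8 oligodendrocyte markers and 5 of 7 markers of their precursors. The microglial sum was 110 to 200 at P7, 105 to 120 at P10 and 82.4 to 110 at P15. The oligodendrocyte sum was 1740 to 2183 at P7, 846 to 1568 at P10, 938 to 1086 at P15 and 2229 to 4910 at P25. That of the precursor markers was 317 to 690 (P7), 156 to 333 (P10) and 185 to 338 (P15). The 8 early postmitotic or radial glial markers summed to 2263 to 4569 (P7), 2055 to 2824 (P10) and 1187 to 2223 (P15). Fabp7 among them read 3.40, 5.64 and 8.16 at P10 and at most 3.75 at P15. At P7 the microglial C1qb read 4.51, 6.20 and 5.45, and Csf1r 4.82, 6.14 and 4.38. The part of these markers in the levels of the 107 genes was not tested either.

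Surface proteins, receptors and channels, 22 genes grouped by what they are known to do after their values had been seen, held 11 of the 31 genes lower at P15, and their median difference was -1.74. Shisa6, an auxiliary subunit that keeps AMPA receptors at synapses, read 9.41, 7.19 and 8.48 at P7, 7.65, 6.92 and 6.81 at P10 and 3.26, 2.89 and 2.87 at P15. All P10 arrays were well over the limit and all P15 arrays well under it. Shisa6 was at least 4.37-fold lower at P15 (log2 difference -4.12, SE 0.49, adjusted p = 0.00045). A fold of this form sets the P10 mean against the limit of 5, since the P15 arrays give no level over background, and a log2 difference against such arrays has no exact meaning as a size. With values under 5 set to 5 the difference of Shisa6 was -2.13. The call was lost with P15 replicate 1 as the sole P15 array.

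Lrrc3, a membrane protein with leucine-rich repeats, read 8.36, 8.45 and 6.38 at P10 and 4.24, 4.18 and 4.48 at P15. The lowest P10 array was nearly 2 log2 units over the highest P15 array, and Lrrc3 was at least 6.63-fold lower at P15 (-3.43, SE 0.47, adjusted p = 0.001), the largest bound among the 31 genes. Its promoter, shown above, held 3 GC boxes. Fat4, a giant atypical cadherin of planar polarity and Hippo signalling, read 8.18, 7.42 and 5.55 at P10 and 3.25 to 3.54 at P15 (at least 4.13-fold lower, adjusted p = 0.0037). Trpm3, a cation channel opened by heat and by a neurosteroid, read 7.39, 6.79 and 5.53 at P10 and 3.00 to 3.95 at P15 (at least 2.97-fold lower, adjusted p = 0.0043). In both, P10 replicate 3 was the lowest of the P10 arrays and still above every P15 array. A second probe set of Trpm3 had a mean of 7.60 at P7, 5.82 at P10 and 2.88 at P15.

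Cd276, an immune checkpoint ligand of the B7 family, was alike in all P7 animals, at 9.03, 9.0 and 9.06. It read 8.25, 7.03 and 6.45 at P10 and 5.79, 4.89 and 5.0 at P15, 4.03-fold lower at P15 (adjusted p = 0.014), and 3.26 to 4.26 on the late arrays. Only replicate 1 of P15 was over the limit, so the fold is approximate, and the call was lost without P10 replicate 1 and without either of P15 replicates 2 and 3. Its groups at P7, P10 and P15 followed one another without overlap. Chodl, a membrane lectin found in some somatostatin interneurons and therefore also among the markers of other interneuron classes here, read 9.23, 8.27 and 10.06 at P7 and 6.02, 6.16 and 5.27 at P10. At P15 Chodl was at 4.20, 3.72 and 3.77, at least 1.76-fold lower than at P10 (adjusted p = 0.013), and it had no further value over 5. The call was lost without P10 replicate 2, without either of P15 replicates 2 and 3, and with values under 5 set to 5 (adjusted p = 0.14). Sst itself read 10.55, 9.20 and 11.53 at P10 and 10.10, 13.04 and 11.81 at P15, and these ranges overlapped.

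Fxyd7, a small regulator of the sodium pump, kept its level longer, at 8.54, 7.07 and 6.90 at P7 and 8.36, 7.98 and 8.12 at P10. It was 4.40-fold lower at P15, at 7.34, 5.04 and 5.67 (adjusted p = 0.026), and 2.17 to 3.48 on the late arrays. All 3 P15 arrays lay between the P10 and the late arrays. The call was lost without either of P10 replicates 1 and 2 and without either of P15 replicates 2 and 3. Tnfrsf19, a receptor of the tumour necrosis factor family, read 4.78, 5.89 and 6.20 at P10. At P15 it read 3.42 to 3.76, at least 1.54-fold lower (adjusted p = 0.011). That call was lost without P15 replicate 2 and with values under 5 set to 5 (difference -0.70, adjusted p = 0.15). The other surface genes lower at P15 were Lingo3, Rtn4rl2 and Ifngr2, with adjusted p from 0.022 to 0.038. With 1 array left out, Lingo3 lost the call for each of the 6 P10 and P15 arrays, and Rtn4rl2 and Ifngr2 for 4 of the 6. With values under 5 set to 5, Lingo3 (adjusted p = 0.015) and Rtn4rl2 (0.037) kept it and Ifngr2 (0.056) did not. Rtn4rl2 and Lingo3 belong to receptor families that limit axon growth.

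Some surface genes behaved otherwise. Dlk2, a membrane protein related to Notch ligands, read 8.10, 8.59 and 8.76 at P7 and 7.79, 7.11 and 5.37 at P10. At P15 it was at 4.69 on replicate 1 and at 6.90 and 7.09 on replicates 2 and 3, within the P10 range (adjusted p = 0.58). Nrp1, a receptor for semaphorins and vascular endothelial growth factor, read 6.91, 7.51 and 7.90 at P7 and 6.35, 3.52 and 4.53 at P10, where only replicate 1 was over 5, and 3.66 to 4.98 at P15. Lrig3 was starker, at 8.64 on P10 replicate 1 and at 2.96 and 2.82 on the other two. Trpv2, a cation channel of the vanilloid receptor family, read 6.13, 6.14 and 6.07 at P10 and 5.46, 7.57 and 6.89 at P15 (adjusted p = 0.57), and it was at background on all late arrays.

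**Figure D5:**
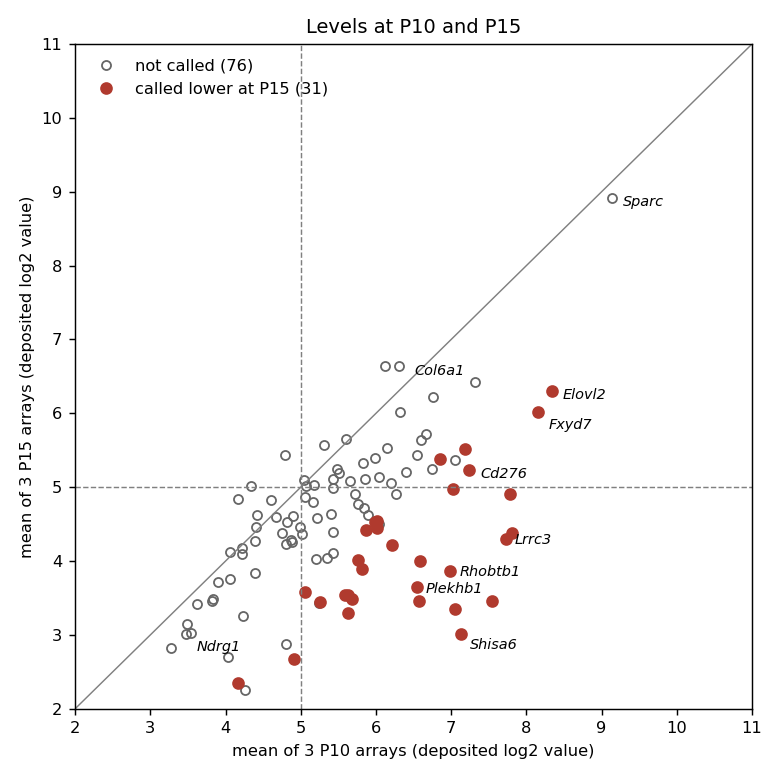
Mean P15 level against mean P10 level of the 107 genes (log2), with the 31 genes lower at P15 by limma filled and the limit of 5 dashed. The filled points lie in the lower right, most of them over 5 at P10 and under 5 at P15, while Sparc sits near the diagonal at 9.14 and 8.91.

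Of 11 secreted and matrix proteins, 2 were lower at P15 than at P10. Sparc, a collagen-binding matricellular protein, read 9.34, 7.65 and 8.58 at P7, 8.61, 8.80 and 10.01 at P10 and 7.26, 9.33 and 10.14 at P15. From P25 it was between 3.60 and 4.88. The P15 arrays covered the P10 range (difference -0.23, SE 0.64, adjusted p = 0.84), so the whole distance to background lay between P15 and P25. A second probe set of Sparc had means of 5.98, 6.79, 6.93, 2.99 and 2.87 at the 5 ages. Col26a1, a collagen, was similar, at 5.44, 6.36 and 7.14 at P10, 6.66, 6.54 and 6.73 at P15 and 4.43 to 4.88 at P25.

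Vit, a matrix protein with von Willebrand domains, read 9.40, 8.96 and 8.26 at P7, 8.26, 7.59 and 7.49 at P10 and 5.05, 3.25 and 6.44 at P15. It was lower at P15 than at P10 (-2.87, SE 0.58, adjusted p = 0.011) and read 2.63 to 2.80 later. Col22a1, a collagen of tissue junctions, was also lower (-3.42, SE 0.72, adjusted p = 0.012), but at 6.83 on P15 replicate 1 and 2.82 and 3.5 on the other two, and without either of those the call was lost. Col6a1, a chain of the microfibrillar collagen VI, was split the opposite way, at 6.83, 7.47 and 7.65 at P10 and 4.47, 7.32 and 7.47 at P15 (adjusted p = 0.39). Over all 107 genes 8 were over 5 on P15 replicate 1 and not on replicates 2 and 3, and 10 were over 5 on replicates 2 and 3 and not on replicate 1. Of the 8266 tested genes over 5 on all P7 arrays, 41 (0.496%) and 83 (1.0%) had these 2 patterns. The rule favours genes that are low at P15, so these counts are a description. Gdf10, a secreted factor of the bone morphogenetic protein family, showed no order over age after P7, at 5.47, 3.07 and 3.94 at P10 and 5.54, 6.15 and 2.83 at P15.

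Of 13 genes of lipid and small-molecule metabolism, 3 were lower at P15. Elovl2, the elongase of very long polyunsaturated fatty acids, read 9.15, 9.61 and 8.09 at P7, 8.77, 8.30 and 7.95 at P10 and 6.01, 5.92 and 6.96 at P15. It was 4.12-fold lower at P15 than at P10 (-2.04, SE 0.40, adjusted p = 0.0092), with no overlap, while still over the limit on every array, and it read 3.44 to 3.89 later. The call was lost without P15 replicate 2 (adjusted p = 0.054). The other 2 were Akr1c19 (adjusted p = 0.036) and Lpcat3, which remodels phospholipids with polyunsaturated chains (at least 1.82-fold, adjusted p = 0.032). With 1 array left out, each lost the call for 4 of the 6 P10 and P15 arrays. The P10 mean of Akr1c19, 4.16, was itself under the limit. With values under 5 set to 5 its difference was -0.15 (adjusted p = 0.61), and that of Lpcat3 was -0.87 (adjusted p = 0.063). Plin2, the coat protein of lipid droplets, read 5.16, 6.72 and 5.68 at P10 and 2.72, 6.58 and 6.01 at P15 (adjusted p = 0.52), low on P15 replicate 1 alone. Maoa, the monoamine oxidase that prefers serotonin, read 7.33, 5.29 and 7.37 at P10 and 5.10, 6.11 and 5.96 at P15, and these overlapped (adjusted p = 0.26).

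Of 9 transcription and chromatin factors, 4 were lower at P15. Sox12, 1 of the SoxC factors of young neurons, was even at each age, at 6.04, 6.11 and 6.33 at P7, 6.36, 5.95 and 5.64 at P10 and 4.55, 4.53 and 4.50 at P15. It was at least 1.98-fold lower at P15 (-1.46, SE 0.28, adjusted p = 0.0094), and the late arrays stayed at 4.30 to 4.56, the level of P15. A second Sox12 probe set had means of 6.99, 5.47, 3.80, 4.98 and 4.01 at the 5 ages and was over 5 on 2 of the late arrays, so its loss of signal is less complete than the chosen probe set shows. Ezh2, the Polycomb histone methyltransferase, read 8.05, 6.09 and 6.79 at P7, 4.63, 5.56 and 5.58 at P10 and 3.83, 2.74 and 3.75 at P15, at least 1.2-fold lower (adjusted p = 0.029). The call was lost without P10 replicate 2 and without either of P15 replicates 2 and 3, and with values under 5 set to 5 the difference was -0.38 (adjusted p = 0.5). Its late arrays, at 3.92 to 4.82, lay above those of P15. Zfat was 3.18-fold lower (adjusted p = 0.028) and Elk3, an ETS factor, at least 2.02-fold (adjusted p = 0.043). With 1 array left out, Zfat lost the call for 4 of the 6 P10 and P15 arrays and Elk3 for 5. With values under 5 set to 5, Zfat (adjusted p = 0.018) kept it and Elk3 (0.058) did not.

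Myc, a driver of growth and ribosome production, read 9.07, 8.95 and 8.26 at P7, 7.59, 4.90 and 7.16 at P10 and 5.30, 4.91 and 6.10 at P15. Its P10 and P15 arrays overlapped through P10 replicate 2 (adjusted p = 0.19). Nfil3, a basic leucine zipper repressor, read 6.07, 5.24 and 5.51 at P10 and 5.55, 6.27 and 5.15 at P15 and did not pass the test either (adjusted p = 0.95).

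Among 13 genes of the cytoskeleton and intracellular signalling, 4 were lower at P15. Rhobtb1, an atypical small GTPase that works with cullin-3 ubiquitin ligases, had the smallest adjusted p of all 107. It read 8.25, 8.45 and 8.09 at P7, 7.58, 6.89 and 6.49 at P10 and 3.89, 3.91 and 3.80 at P15. The spread within each age was small against the step, at least 3.96-fold (-3.12, SE 0.32, adjusted p = 7e-05), and the late arrays, at 3.32 to 3.93, were at the level of P15. Rhobtb1 and Plekhb1 kept their call under every other setting of the fit tried on them. Frmd3, Rab3d and Ttll3 were the other 3, with adjusted p from 0.013 to 0.028. With 1 array left out, Frmd3 lost the call for 2 of the 6 P10 and P15 arrays, Rab3d for 3 and Ttll3 for 4. With values under 5 set to 5, Frmd3 (adjusted p = 0.0079) kept it, and Rab3d (0.12) and Ttll3 (0.4) did not.

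Pak7, a p21-activated kinase of neurons, read 6.42, 7.31 and 6.23 at P7 and 3.41 to 3.51 at P15. At P10 it read 5.14, 3.19 and 3.13, over 5 on replicate 1 alone. Csrp2, a LIM protein that binds actin filaments, was among the genes over 5 on all P15 arrays. It read 8.43, 7.71 and 8.36 at P7, 7.09, 5.97 and 5.89 at P10, 6.11, 5.92 and 6.02 at P15 and 2.29 to 3.73 later. Its P15 arrays were nearly identical and lay inside the P10 range. Rgs12, which speeds the shut-off of G proteins, had the same split at P15 as Plin2, at 2.66, 6.73 and 6.19.

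Of 4 genes of chromosome structure and DNA repair, 1 was lower at P15. The other 3, Smc4, a condensin subunit, Cenpw and Mdc1, did not pass the test (adjusted p from 0.17 to 0.32). Mki67, Top2a and Cdk1, which mark dividing cells, were at background on all 15 arrays. Rrm2, a further marker on that list, was not. It read 6.92, 6.34 and 3.71 at P7, 3.65, 7.22 and 4.27 at P10 and 6.78, 3.77 and 3.54 at P15. On replicate 3 of P25 and of P40 it read 5.96 and 5.83.

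The remaining 35 genes have varied or unclear roles, and 6 of them were lower at P15. Plekhb1, a membrane-associated protein with a pleckstrin homology domain, read 7.18, 6.52 and 6.78 at P7, 6.32, 5.90 and 7.42 at P10 and 3.39, 3.96 and 3.58 at P15. Its P7 and P10 arrays overlapped, and the step to P15 was at least 2.92-fold (-2.90, SE 0.39, adjusted p = 0.001). The uncharacterised gene 2900026A02Rik read 6.90, 6.56 and 8.35 at P7, 8.64, 7.74 and 6.25 at P10 and 4.07, 3.54 and 2.78 at P15 (at least 5.84-fold lower, adjusted p = 0.0021). The others were Ypel1, Sncaip, Zdhhc23 and Ifit1bl1. With 1 array left out, Ypel1 lost the call for 3 of the 6 P10 and P15 arrays, Sncaip and Zdhhc23 for 4 and Ifit1bl1 for all 6. With values under 5 set to 5, Ifit1bl1 (adjusted p = 0.0085) kept it, and Ypel1 (0.18), Sncaip (0.45) and Zdhhc23 (0.52) did not. Nnat, an imprinted proteolipid of the endoplasmic reticulum in young neurons, read 6.43, 4.68 and 5.34 at P10 and 4.59, 4.95 and 6.19 at P15 (adjusted p = 0.80), and Mex3d, an RNA-binding protein, 7.03, 5.53 and 7.24 and then 6.38, 5.58 and 4.95 (adjusted p = 0.22). Both overlapped between the ages.

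The 107 genes were a small part of each list of related pathways. Some genes on these lists were left out of the 107 by symbol, whatever their values. Among these are Vim, Vcan, Mvd, Draxin and genes of the Dlx, Kif, Sema and Eph families, so the overlaps are partly set by the rule. The counts on the lists stand beside 2.79% lower and 8.57% higher over all tested genes. The list of immature neuron and neurite growth genes held 53 tested genes, of which 2, Sox12 and Nnat, were among the 107, and 9 were lower and 1 higher at P15 than at P10. Sterol and isoprenoid synthesis held 28, with Scd1 among the 107, and 7 were lower and 0 higher. Chromatin regulators held 62, with Ezh2, and 7 were lower and 2 higher. Of 68 adhesion and guidance genes, with Nrp1, 3 were lower and 1 higher, and of 42 matrix genes, with Sparc and Col6a1, 2 were lower and 3 higher. Of 53 genes of growth factor signalling, with Igfbp2, 4 were lower and 4 higher, and of 38 RNA-binding proteins, with Mex3d, 3 and 2. The 23 hypoxia-responsive genes, with Ndrg1, had 0 lower and 5 higher, at a median difference of 0.39. None of the 107 was on the lists of developmental transcription factors (7 of 45 lower, 2 higher) and of cell cycle genes (2 of 29 lower, 1 higher).

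Other probe sets of the same genes gave little help. 52 of the 107 genes had 1 probe set, and the other 55 had 97 further ones, of which 71 were at background on all P7 arrays, 20 were over 5 on 1 or 2 and 6 on all 3. These 6, of Dlk2, Lrig3, Nrp1, Prr18, Sox12 and Trpm3, had lower means at P25 and at P40 than at P7. All but that of Sox12, 5 in number, were at background on every late array. Of all 97 further probe sets 4 were over 5 on at least 1 late array, those of Sox12, Fam241a, Ptchd1 and Ptgs2. That of Ptchd1 had means of 5.07 at P7 and 5.04 at P25, and that of Ptgs2 of 6.55 and 4.65. The probe set used for each gene was the one with the highest mean over all 15 arrays. For 10 genes, among them Ndrg1, Fat4, Col22a1 and 2900026A02Rik, its suffix marks probes that can bind more than 1 transcript.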

How the data were processed

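The deposited table holds 1 log2 value per probe set and array. Per the submitters' processing notes, the authors used GCRMA; its version was not given in the sources used here, nor whether all arrays were processed together. Values ran from 0.51 to 16.13 and were used as deposited. For each gene, the single-gene probe set (annotation paired by the platform table) with the highest mean over all 15 arrays was read, so P10 and P15 entered that choice. Genes over 5 on at least 3 arrays were tested, 9663 of 18193, and all 107 members passed through their P7 values.

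P15 minus P10 was tested with limma 3.58.1 in R 4.3.3, by a means model over the 5 ages with a trended prior variance (10 residual and a median of 4.85 prior degrees of freedom), two-sided, with Benjamini-Hochberg adjustment over all 9663 genes. All arrays share the estimate of spread, so the ages that selected the genes enter each SE and p. The fit on the P10 and P15 arrays alone called 6 of the 107 genes lower, in place of 31. That fit also had fewer arrays, so the part of the selection in this drop was not tested. Calls needed an adjusted p under 0.05. SE stands for limma's moderated error of a difference, and ± for the SD. A fold is given where both means exceed 5, and "at least" where all P15 arrays lie at or under 5. The fit was tested on simulated data. Python 3.11.15, pandas 2.3.3 and matplotlib 3.10.9 made the counts and figures. Arrays have no read depth, so their number limits the precision.

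Named genes were the 12 with the highest P7 means, the 12 smallest adjusted p, the 8 highest P15 means among genes over 5 on all P15 arrays, those on the 11 pathway lists, the 5 nearest each limit on both sides, and Ndrg1 and Rhobtb1. 1 of these genes and 1 of these lists are not reported here. Other genes named, and the role groups, were chosen after their values were seen. Members and lists were chosen with earlier results of these data known. The other settings tried covered normalization, filters, the limit, covariates, array weights, a replicate block and leaving out each array.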

Additional observations from a re-analysis of the deposited data

How the results depend on the processing

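The 31 genes lower at P15 became 5 with P15 replicate 1 as the sole P15 array, 12 with the actin difference and 3 with the number of cells as covariate, 14 of 33 tested with a filter at 7, 20 without a filter, 6 on the P10 and P15 arrays alone and 20 with values under 5 set to 5. Leaving out 1 array gave 10 to 32. Array weights gave 1 gene higher in place of 0. The 270 genes lower among all tested became, in the same settings, 16, 52 and 8, then 149 without a filter and 22 on the P10 and P15 arrays alone, with 663 under array weights, 463 with equal array medians and 52 to 446 without 1 array. The median difference of -0.90 was -0.77 with array weights, -1.17 with equal medians, -1.69 with the filter at 7, -0.42 with values under 5 set to 5 and -1.0 to -0.66 without 1 array.

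The 15 genes at background at P10 became 23 at a limit of 6, 27 with the mean of probe sets and 15 to 45 without 1 array. The 53 at P15 became 89 with the mean of probe sets and 53 to 91 without 1 array. The 11 over 5 on all P15 arrays became 7 at a limit of 4, 29 with P15 replicate 1 alone and 11 to 21 without 1 array. The rule found 85 genes at a limit of 4, of which 38 were among the 107, 129 at a limit of 6 (53 shared), 156 with the mean of probe sets (63 shared) and 107 to 154 without 1 array. The causes were not tested. For 16 named genes lower at P15, no setting reversed the direction, and 62 of 440 values no longer passed the threshold.

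With the replicate number as a block, 27 of the 31 genes were lower. Same-numbered P10 and P15 arrays had correlated deviations of 0.07, -0.04 and 0.17, against -0.15 to 0.10 for other numbers; they come from separate animals, so the numbers do not pair the samples.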
